A study of Homo sapiens with 9 samples.

Results

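The 60 genes described here encode the machinery of mitosis: the spindle, the kinetochores, the spindle checkpoint, the motors that move chromosomes, and the kinases and ubiquitin-ligase regulators that time entry into and exit from division. They were chosen by gene name from a table of 58929 genes. All 60 were among the 16065 genes with enough counts to be tested. They were measured by RNA-seq in FaDu, an established cell line from a squamous carcinoma of the hypopharynx, with no engineered genotype. Cells received the vehicle DMSO, 250 nM samuraciclib or 250 nM YKL-5-124, with 3 libraries in each of the 3 groups. The treatment notes give 48 h of exposure, whereas the overall design of the series gives 72 h, so the duration is one or the other. Both compounds are selective inhibitors of CDK7, a kinase that activates other cyclin-dependent kinases and phosphorylates RNA polymerase II. Samuraciclib binds reversibly, whereas YKL-5-124 binds covalently. The comparisons ask how the expression of mitosis genes differed under each inhibitor, and between the inhibitors at the same dose.

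Before a cell divides, each chromosome is attached to spindle microtubules through a kinetochore, a layered complex built on centromeric chromatin. Unattached kinetochores generate a checkpoint signal that holds back CDC20, the activator of the anaphase-promoting complex (APC/C). Once every kinetochore is attached, the APC/C marks securin and cyclin B for destruction, separase cuts cohesin, and the sister chromatids part. Most genes of this machinery are transcribed in late S, G2 and M phase, under the MuvB complex with B-MYB and FOXM1, and are repressed in quiescent cells by the related DREAM complex. Many of their promoters carry a cell cycle genes homology region (CHR), a short element bound by MuvB.

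Library totals ranged from 18096180 to 28018126 assigned counts, and the 9 libraries of the 3 groups overlapped in depth. Outside PRC1, which had at least 55 counts, every mitosis gene had at least 228 counts in every library. The labels place all libraries in 1 batch. Of 10 squamous epithelial markers, 9 exceeded 5 CPM (TMM-normalized counts relative to library size) in every library. Of 15 markers of fibroblasts, leukocytes and endothelium, 11 stayed at or below 1 CPM, and 2 had no count. The exceptions were CDH5, COL1A1 (3.73 to 5.96 CPM), CD14 (2.21 to 4.04 CPM) and VWF (up to 1.13 CPM). Each group held 1 library low in the 7SL RNA gene RN7SL2, at 59.3 CPM in DMSO 3, 24.9 in samuraciclib 2 and 56.3 in YKL-5-124 2, against 696 to 981 CPM in the other 6. The deviations of these low libraries from their group means correlated with each other across genes (r from 0.182 to 0.228). The study's methods call the libraries of a group biological replicates, without saying how the cultures were separated, and the p-values measure the spread between these libraries.

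Both inhibitors were accompanied by lower expression of the mitosis genes as a group. The 60 genes took 0.857%, 0.867% and 0.851% of all counts in the DMSO libraries, 0.751%, 0.749% and 0.760% with samuraciclib, and 0.778%, 0.783% and 0.770% with YKL-5-124. The 3 DMSO libraries lay above all 6 inhibitor libraries. Some cell type markers also moved with the groups. The endothelial cadherin CDH5 was at 29.2 to 31 CPM in DMSO, 18.7 to 23 CPM with samuraciclib and 24.8 to 27.6 CPM with YKL-5-124, while PECAM1 stayed at or below 0.206 CPM. The summed squamous markers were at 5493 to 5820 CPM, 6338 to 6646 CPM and 5706 to 6135 CPM in the same order. Within them the markers did not move together. The epithelial cadherin CDH1 was at 183 to 199 CPM, 324 to 333 CPM and 371 to 385 CPM. KRT17 was likewise higher, at 1744 to 1804 CPM, 2640 to 2793 CPM and 2625 to 2817 CPM. KRT5 was lower, at 2519 to 2694 CPM, 2283 to 2395 CPM and 1763 to 1927 CPM. Their part in the result was not tested. A gene was called when the edgeR quasi-likelihood test gave a p below 0.05 after Benjamini-Hochberg adjustment for all 16065 tests, with a log2 fold change beyond 0.5 in either direction. With YKL-5-124, 11 of the 60 (18.3%) were called lower and 0 higher, whereas 9.93% of all genes tested were called lower and 11.9% higher. With samuraciclib, 16 of the 60 (26.7%) were called lower and 0 higher, against 9.55% and 8.17% of all genes tested. Testing for a fold change beyond the threshold rather than beyond 0 (glmTreat) left 8 called lower with each inhibitor. It ended the calls of CENPI, CENPM and ESPL1 with YKL-5-124, and of AURKA, HMMR, ASPM, CENPI, CENPN, NUF2, SPC25 and UBE2C with samuraciclib. The median log2 fold change of the 60 genes was -0.33 with YKL-5-124 and -0.28 with samuraciclib, beside medians of 0.014 and 0.0012 over all genes tested. Both comparisons use the same 3 DMSO libraries. Scaling by library size alone ended the calls of CENPM and ESPL1 with YKL-5-124, and those of CENPI, NUF2, SPC25 and UBE2C with samuraciclib. From RNA of whole cultures alone, fewer cells in G2 and M phase and less of these RNAs in each such cell cannot be told apart. By flow cytometry, the paper reports that samuraciclib made cells accumulate in G2/M in every line of its panel, FaDu among them. With YKL-5-124 it reports accumulation in S and/or G2/M, which varied by line. The doses of that assay are not in the paper's text, and its exposure is 48 h in the legends but 72 h in the methods. Phase was not measured in these libraries, and its part in the result was not tested.

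**Figure D1:**
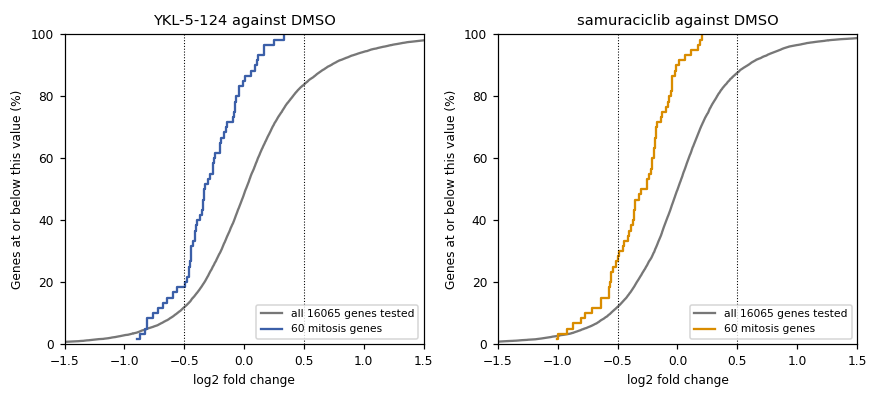
Cumulative share of genes (vertical axis, %) at or below each log2 fold change (horizontal axis) for the 60 mitosis genes (colour) and all 16065 genes tested (grey), for YKL-5-124 against DMSO (left) and samuraciclib against DMSO (right). Dotted lines mark the fold threshold of 0.5. Above the lowest few percent the mitosis genes lie to the left of all genes, with medians of -0.33 and -0.28.

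Without the fold threshold, many more members passed. An adjusted p below 0.05 with a negative fold change was found for 43 of the 60 with YKL-5-124, beside 25.2% of all genes tested, and for 41 with samuraciclib, beside 23.1%. In the opposite direction there were 4 and 3 members, beside 24.1% and 21% of all genes tested. With each inhibitor, 44 of the 60 had all 3 inhibitor libraries below all 3 DMSO libraries, whereas 28.4% of all genes tested did so with YKL-5-124 and 27.3% with samuraciclib. The 4 with a positive fold change under YKL-5-124 were CDC25B, KIF18A, RACGAP1 and CEP55, and the 3 under samuraciclib were FOXM1, CEP55 and INCENP.

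**Figure D2:**
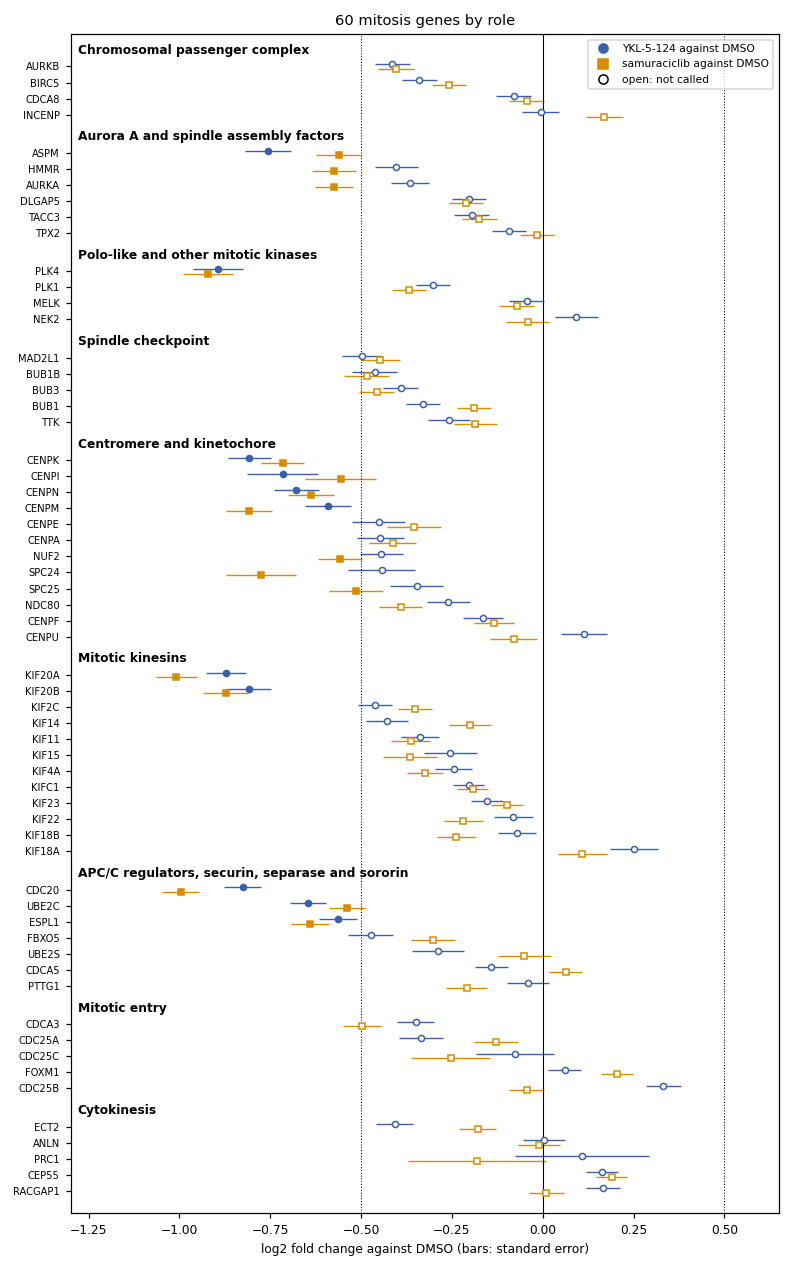
Log2 fold change against DMSO (horizontal axis) of each of the 60 genes, grouped by role, for YKL-5-124 (blue circles) and samuraciclib (orange squares). Bars are standard errors, filled symbols are genes called, and dotted lines mark the fold threshold. Filled symbols appear among the kinetochore genes, spindle assembly factors, kinesins, PLK4 and APC/C regulators, and none lies to the right of 0.

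The promoters of these genes are shown because the CHR is a hallmark of mitosis genes. RefSeq promoters (GRCh38.p14, 250 bases before to 50 bases after the annotated start) were matched by symbol for 51 of the 60 genes. The CHR core TTTGAA, searched on both strands, occurred in 33 of the 51 (64.7%), compared with 13.4% of the 10679 tested genes with a promoter. In 30 of the 51 (58.8%) it began within 50 bases of the start, against 4.28% of the tested genes. The variant core TTCGAA, also searched on both strands, was in 9.8% of the members and 2.35% of tested genes. CCAAT, the box bound by NF-Y, was in 78.4% and 42.9% on either strand, and GCGGGAA, an E2F-like sequence, was in 15.7% and 12.7%. None of these strings contains another, and a match describes the sequence, not binding. Only promoters with the CHR core were picked to be shown. The promoters of KIF20A, CENPK and CENPI, also called lower with both inhibitors, lack it, as does that of SPC24, called with samuraciclib. Below are the last 100 bases before and the first 50 bases after the start of 4 members called lower with both inhibitors and 4 called with neither. Each is written 5′ to 3′ on the gene's strand with the CHR core in capitals.
CDC20 (called, chr1:43358881-43359030, plus strand): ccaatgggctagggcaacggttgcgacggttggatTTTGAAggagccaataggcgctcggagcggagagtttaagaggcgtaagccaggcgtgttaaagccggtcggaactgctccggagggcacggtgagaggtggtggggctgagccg
PLK4 (called, chr4:127880793-127880942, plus strand): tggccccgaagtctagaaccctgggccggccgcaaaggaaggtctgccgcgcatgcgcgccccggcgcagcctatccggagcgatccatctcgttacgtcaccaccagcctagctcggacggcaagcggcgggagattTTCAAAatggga
KIF20B (called, chr10:89701490-89701639, plus strand): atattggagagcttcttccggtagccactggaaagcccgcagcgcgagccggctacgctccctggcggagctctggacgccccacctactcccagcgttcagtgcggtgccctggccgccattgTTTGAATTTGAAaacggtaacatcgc
ESPL1 (called, chr12:53268199-53268348, plus strand): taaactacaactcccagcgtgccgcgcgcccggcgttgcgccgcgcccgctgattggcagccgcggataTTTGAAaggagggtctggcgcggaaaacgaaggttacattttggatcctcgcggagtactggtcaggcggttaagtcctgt
CEP55 (not called, chr10:93496512-93496661, plus strand): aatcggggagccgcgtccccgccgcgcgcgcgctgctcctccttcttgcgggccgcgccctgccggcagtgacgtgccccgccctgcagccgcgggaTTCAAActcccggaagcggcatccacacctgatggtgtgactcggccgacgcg
ANLN (not called, chr7:36389762-36389911, plus strand): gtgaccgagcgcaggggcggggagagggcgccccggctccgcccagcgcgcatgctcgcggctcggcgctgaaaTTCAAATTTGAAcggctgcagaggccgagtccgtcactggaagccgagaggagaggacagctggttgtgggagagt
KIF18A (not called, chr11:28108107-28108256, minus strand): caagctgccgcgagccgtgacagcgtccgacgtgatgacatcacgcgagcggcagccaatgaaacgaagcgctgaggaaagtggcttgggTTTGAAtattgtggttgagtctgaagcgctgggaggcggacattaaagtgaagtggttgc
INCENP (not called, chr11:62123911-62124060, plus strand): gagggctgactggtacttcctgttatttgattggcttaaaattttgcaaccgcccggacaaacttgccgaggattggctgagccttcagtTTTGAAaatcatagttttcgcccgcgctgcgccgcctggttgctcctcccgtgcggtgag

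The CHR core was found both in members called lower and in members not called. It was present in 9 of 13 promoters of genes called lower with either inhibitor (69.2%) and in 24 of 38 of those called with neither (63.2%). CCAAT was in 84.6% and 76.3% of the same sets. These shares are descriptions without a test.

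**Figure D3:**
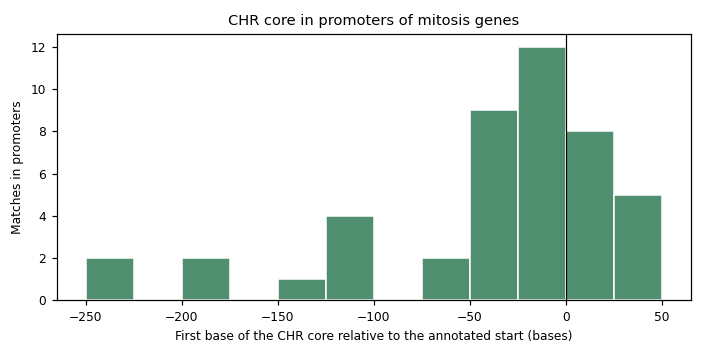
Position of 45 matches to the CHR core in promoters of 33 mitosis genes, in bins of 25 bases, relative to the annotated start at 0 (horizontal axis, bases, negative before the start). Of these matches, 34 begin within 50 bases of the start.

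More genes were called at the kinetochore than in any other role, which is also, with the kinesins, the role with most members. With YKL-5-124, 4 of its 12 members (33.3%) were called lower, beside 9.93% of all genes tested, at a group median log2 fold change of -0.45. With samuraciclib 7 (58.3%) were, beside 9.55%, at -0.53. By share, the APC/C regulators, securin, separase and sororin stood above it with YKL-5-124, at 42.9% and a median of -0.47. CENPH, CENPI, CENPK and CENPM form 1 module of the inner kinetochore, and the 3 of these among the 60 were all called lower with both inhibitors. CENPK (chr5:65517766-65563171, GRCh38) was measured at 54.4, 56.7 and 59 CPM in DMSO, at 33.5, 36.3 and 33.7 CPM with samuraciclib and at 31.8, 33.3 and 32.1 CPM with YKL-5-124. The 3 groups did not overlap, with DMSO highest and YKL-5-124 lowest. Its log2 fold change was -0.81 ± 0.060 (SE, adjusted p = 3.68e-09) with YKL-5-124 and -0.72 ± 0.059 (adjusted p = 2.6e-08) with samuraciclib.
CENPM, its partner, was at 134, 127 and 123 CPM in DMSO, 74.8, 67.7 and 76.9 CPM with samuraciclib, and 82.1, 79.4 and 93.7 CPM with YKL-5-124. Here the samuraciclib libraries were the lowest of the 9. CENPI was the least abundant of the module per library, at 18.3, 22.1 and 22 CPM in DMSO, 14.9, 13.6 and 14.1 CPM with samuraciclib, and 13.7, 13.1 and 11.3 CPM with YKL-5-124, for log2 fold changes of -0.56 ± 0.098 and -0.72 ± 0.099. Its samuraciclib call was lost in the 6 libraries not low in 7SL RNA (-0.48). In those libraries KIF2C (-0.51), FBXO5 (-0.57) and MAD2L1 (-0.56) gained a call with YKL-5-124, as did BUB1B (-0.51) and CDCA3 (-0.54) with samuraciclib. CENPN, which reads the centromeric nucleosome, fell by 0.68 (log2) with YKL-5-124 and by 0.64 with samuraciclib, but 100% of its gene span is shared with other gene models, mostly on the opposite strand, and the strand setting of the counting is not given in the sources used here.

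The NDC80 complex, the outer kinetochore coupler that grips microtubules, was split by the fold threshold. SPC24 was at 19.5, 22.4 and 19.8 CPM in DMSO, 12.6, 10.9 and 12.5 CPM with samuraciclib and 13.8, 15.5 and 16 CPM with YKL-5-124. All DMSO libraries were above all others, and the samuraciclib libraries were below those with YKL-5-124. Its log2 fold change was -0.78 ± 0.096 (adjusted p = 3.15e-06) with samuraciclib and -0.44 ± 0.093 (adjusted p = 0.000687) with YKL-5-124. NUF2 and SPC25 were likewise called with samuraciclib, at -0.56 and -0.51, and were at -0.44 and -0.35 with YKL-5-124. SPC25 lay close to the threshold, with 33.1, 36.9 and 33 CPM in DMSO, 22.1, 25.6 and 24.3 CPM with samuraciclib and 26.9, 26.8 and 27.3 CPM with YKL-5-124, and its samuraciclib call was lost without DMSO 2 or samuraciclib 1 (-0.46 each). NDC80 itself was at -0.39 and -0.26 and was not called. Gene models of neighbours on the opposite strand cover 62% of the span of NUF2 and 50.7% of that of SPC25. For CENPE, a kinetochore motor, values were 86.7, 88.9 and 100.2 CPM in DMSO, 73.8, 76.2 and 66 CPM with samuraciclib, and 70.9, 71.5 and 59.6 CPM with YKL-5-124, below the fold threshold with both (-0.35 and -0.45). CENPA, the centromeric histone H3 variant, and CENPF were also not called. SLC35F6, on the same strand, overlaps 46.1% of the span of CENPA. At the other end, CENPU was at 34.7, 37.8 and 34.6 CPM in DMSO, 35.4, 32.1 and 33.7 CPM with samuraciclib and 38.7, 40 and 37 CPM with YKL-5-124, overlapping DMSO in both comparisons.

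None of the 5 spindle checkpoint genes was called with either inhibitor, although all 5 had negative fold changes in both comparisons and adjusted p-values below 0.05. Their median log2 fold change was -0.39 with YKL-5-124 and -0.45 with samuraciclib. MAD2L1, which is loaded onto CDC20 by the checkpoint, was at 131, 143 and 131 CPM in DMSO, 100.2, 97.2 and 99 CPM with samuraciclib, and 88.5, 100.04 and 97.5 CPM with YKL-5-124. The DMSO libraries were above all 6 others. Its log2 fold change with YKL-5-124, -0.497 ± 0.054, missed the fold threshold by a narrow margin, and it was called when DMSO 1, DMSO 3, YKL-5-124 2 or YKL-5-124 3 was left out (-0.51 to -0.53), in the 6 libraries not low in 7SL RNA (-0.56) and by DESeq2 (-0.51). BUB1B, the BubR1 kinase-like subunit of the checkpoint complex, was at 90.8, 95.7 and 100.4 CPM in DMSO, 67.2, 74.2 and 63.6 CPM with samuraciclib and 67.5, 73.9 and 66.7 CPM with YKL-5-124. BUB3, its partner, was at 283, 299 and 274 CPM in DMSO, 214, 197 and 213 CPM with samuraciclib, and 220, 220 and 213 CPM with YKL-5-124. For both genes DMSO and inhibitor libraries did not overlap. BUB1B, at -0.46 with YKL-5-124 and -0.48 with samuraciclib, was called without DMSO 1 in both comparisons (-0.50 and -0.52), without YKL-5-124 2 in the first (-0.51) and without samuraciclib 2 in the second (-0.55). TTK, the MPS1 kinase that starts checkpoint signalling, had the smallest difference, at 78.6, 91.7 and 85.2 CPM in DMSO, 72.7, 78.7 and 73.4 CPM with samuraciclib and 71.5, 73.8 and 68.4 CPM with YKL-5-124, where 1 samuraciclib library overlapped DMSO.

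CDC20, the target of that checkpoint, showed one of the largest differences. It was at 419, 419 and 393 CPM in the DMSO libraries, 208, 195 and 213 CPM with samuraciclib and 223, 230 and 241 CPM with YKL-5-124. The 3 groups did not overlap, with samuraciclib lowest. The log2 fold change was -0.997 ± 0.050 (adjusted p = 7.65e-11) with samuraciclib and -0.83 ± 0.050 (adjusted p = 2.68e-10) with YKL-5-124. Of the 7 genes of the APC/C regulators, securin, separase and sororin, 3 were called lower with each inhibitor. UBE2C, the ubiquitin-conjugating enzyme that starts chains on APC/C substrates, was at 232, 235 and 216 CPM in DMSO, 155, 153 and 162 CPM with samuraciclib, and 139, 143 and 154 CPM with YKL-5-124 (-0.54 and -0.65). ESPL1, the separase, was at 130, 129 and 129 CPM in DMSO, 81.5, 88.1 and 79.3 CPM with samuraciclib and 92.5, 85.6 and 84.4 CPM with YKL-5-124 (-0.64 and -0.56). In both genes every inhibitor library was below every DMSO library. FBXO5, the APC/C inhibitor EMI1, was at 60, 58.9 and 55.6 CPM in DMSO, 46.3, 46.6 and 48.6 CPM with samuraciclib, and 41.4, 45 and 38.9 CPM with YKL-5-124. With YKL-5-124 it was not called at -0.47, but was when DMSO 3 or YKL-5-124 2 was left out (-0.51 and -0.54). PTTG1, the securin that ESPL1 is released from, was at 90.5, 96.6 and 81 CPM in DMSO, 78, 76.3 and 77.1 CPM with samuraciclib, and 88, 85.9 and 86.2 CPM with YKL-5-124, within the DMSO range in the last group. UBE2S, which extends the chains, was at -0.05 with samuraciclib and -0.29 with YKL-5-124, and CDCA5 (sororin, a protector of cohesin) was at 0.06 and -0.14.

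Among the 12 mitotic kinesins, the same number, 2, was called lower with each inhibitor, and both genes belong to the kinesin-6 family. KIF20A, which acts in the central spindle and in cytokinesis, was at 117, 129 and 128 CPM in DMSO, 61.8, 64.4 and 59.9 CPM with samuraciclib, and 68.5, 71.8 and 64.4 CPM with YKL-5-124. It had the lowest fold change of all 60 with samuraciclib, -1.01 ± 0.056 (adjusted p = 2.48e-10), and was at -0.87 ± 0.055 (adjusted p = 4.75e-10) with YKL-5-124. KIF20B, its paralog, was at 134, 134 and 148 CPM in DMSO, 79.5, 78.6 and 68.9 CPM with samuraciclib, and 78.9, 83.7 and 74.5 CPM with YKL-5-124 (-0.87 and -0.81). The third kinesin-6, KIF23 of the centralspindlin complex, was at -0.10 and -0.15 and was not called. KIF2C (MCAK, a microtubule depolymerase) was at 197, 213 and 195 CPM in DMSO, 161, 158 and 155 CPM with samuraciclib and 149, 150 and 140 CPM with YKL-5-124, without overlap but under the fold threshold (-0.35 and -0.46). KIF11, the EG5 motor that separates spindle poles, was at -0.36 and -0.34. KIF18A, which restrains chromosome movement, was highest, at 32.3, 33.2 and 35.7 CPM in DMSO, 38, 36.8 and 34.4 CPM with samuraciclib and 37.7, 42 and 40.7 CPM with YKL-5-124. Its YKL-5-124 libraries were all above DMSO (log2 fold change 0.25 ± 0.067, adjusted p = 0.00439), below the fold threshold.

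The mitotic kinases differed widely. PLK4, the kinase that licenses centriole duplication, was at 45.2, 45.5 and 47.2 CPM in DMSO, 25.2, 25 and 22.5 CPM with samuraciclib, and 25.7, 25.5 and 23.1 CPM with YKL-5-124. The inhibitor libraries interleaved, and all were below DMSO. Its log2 fold changes were -0.92 ± 0.069 (adjusted p = 6.68e-09) and -0.89 ± 0.068 (adjusted p = 5.98e-09), the latter the lowest of the 60 with YKL-5-124. PLK1, the Polo-like kinase of spindle assembly and mitotic exit, was at -0.37 with samuraciclib and -0.30 with YKL-5-124, and was not called. NEK2, a centrosome-separating kinase, was at 47.8, 48.9 and 49.2 CPM in DMSO, 45.5, 46.1 and 50.3 CPM with samuraciclib, and 49.2, 52.2 and 54.1 CPM with YKL-5-124, where the lowest YKL-5-124 library was level with the highest DMSO library. MELK was at -0.07 and -0.04.

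Of the 6 Aurora A and spindle assembly genes, ASPM was called lower with YKL-5-124, and ASPM, AURKA and HMMR with samuraciclib. ASPM, a spindle pole protein, was at 148, 142 and 160 CPM in DMSO, 108, 105 and 92.1 CPM with samuraciclib, and 92.5, 91.1 and 82.9 CPM with YKL-5-124. Its samuraciclib call (-0.56) was lost without samuraciclib 3 (-0.49). AURKA, the Aurora A kinase, was at 146, 162 and 156 CPM in DMSO, 99.2, 103 and 110 CPM with samuraciclib, and 119, 125 and 117 CPM with YKL-5-124, for log2 fold changes of -0.57 ± 0.052 and -0.36 ± 0.052. Thus samuraciclib libraries were lowest, YKL-5-124 libraries intermediate and DMSO libraries highest, without overlap. TPX2, which activates Aurora A on microtubules, was at 451, 478 and 474 CPM in DMSO, 460, 471 and 455 CPM with samuraciclib, and 437, 456 and 422 CPM with YKL-5-124, and overlapped in both comparisons. HMMR, a spindle-assembly partner of TPX2, was at -0.57 and -0.40, with an antisense gene model over 28% of its span. TACC3 and DLGAP5 were between -0.17 and -0.21 in both comparisons.

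No gene of the chromosomal passenger complex was called. AURKB, its Aurora B kinase, was at 133, 129 and 130 CPM in DMSO, 92.6, 104 and 99.7 CPM with samuraciclib, and 101, 96.6 and 96.6 CPM with YKL-5-124, a clear separation of log2 -0.40 ± 0.049 and -0.41 ± 0.049 below the fold threshold. BIRC5 (survivin), which targets the complex to centromeres, was at -0.26 and -0.34. INCENP, the scaffold, was at 185, 180 and 204 CPM in DMSO, 211, 223 and 207 CPM with samuraciclib and 185, 193 and 189 CPM with YKL-5-124. Here the samuraciclib libraries were the highest of the 9 (0.17 ± 0.050, adjusted p = 0.0104), and those with YKL-5-124 lay within the DMSO range. CDCA8 (borealin) was at -0.04 and -0.08.

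The 5 mitotic entry genes and the 5 cytokinesis genes had no called member and medians near 0, at -0.13 and -0.009 with samuraciclib and -0.08 and 0.11 with YKL-5-124. FOXM1, the transcription factor of this program, was at 439, 431 and 456 CPM in DMSO, 505, 522 and 501 CPM with samuraciclib, and 455, 470 and 457 CPM with YKL-5-124. All samuraciclib libraries were above all others (0.20 ± 0.045, adjusted p = 0.00121). CDC25B, a phosphatase that activates CDK1, was at 118, 117 and 126 CPM in DMSO, 122, 114 and 115 CPM with samuraciclib and 148, 149 and 158 CPM with YKL-5-124, all 3 of the last above the other 6 (0.33 ± 0.049, adjusted p = 1.82e-05). CDCA3, which triggers degradation of WEE1, was at 81.8, 81.2 and 80.5 CPM in DMSO, 54.2, 60.2 and 57.8 CPM with samuraciclib, and 64.7, 61.9 and 64.5 CPM with YKL-5-124. Its samuraciclib fold change, -0.499 ± 0.052, fell just short of the threshold, and the gene was called when DMSO 3 (-0.51), samuraciclib 2 (-0.54) or samuraciclib 3 (-0.50) was left out. GNB3 overlaps 35.8% of its span. ECT2, the RHOA exchange factor of the cleavage furrow, was at 377, 389 and 379 CPM in DMSO, 343, 343 and 325 CPM with samuraciclib, and 297, 299 and 267 CPM with YKL-5-124 (-0.18 and -0.41). RACGAP1, its centralspindlin partner, was at 151, 160 and 165 CPM in DMSO, 159, 160 and 162 CPM with samuraciclib and 173, 188 and 174 CPM with YKL-5-124. CEP55, an abscission scaffold, was at 134, 140 and 142 CPM in DMSO and between 151 and 161 CPM in all 6 inhibitor libraries. PRC1 was at 2.51 to 4.04 CPM over the 9 libraries, with 99.5% of its span shared with other gene models on the same strand, so its value is uncertain.

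**Figure D4:**
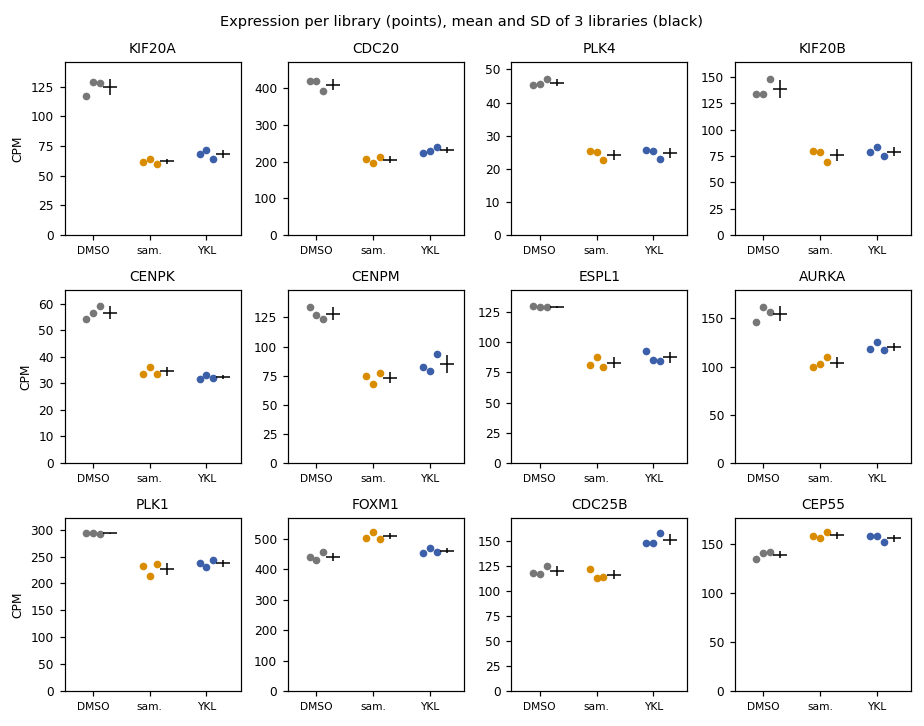
CPM (vertical axis, from 0) of 12 mitosis genes in each library (points), with the mean and SD of the 3 libraries of a group (black), for DMSO (grey), samuraciclib (sam., orange) and YKL-5-124 (YKL, blue). CDC20 drops from 393 to 419 CPM in DMSO to 195 to 241 CPM in the 6 inhibitor libraries, whereas CDC25B is highest with YKL-5-124 and CEP55 is higher in all 6.

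Per kilobase of gene model, the scale on which levels can be compared between genes, CDC20 was the highest in DMSO at 201 CPM per kb, followed by UBE2S at 196 (with RPL28, a ribosomal protein gene on the other strand, over 43.6% of its span), UBE2C at 177, TPX2 at 130 and BIRC5 at 110.3. Among the lowest were PRC1 at 0.622, CDC25C at 4.29 and CENPI at 4.82 CPM per kb. High and low levels both occurred among the genes called lower.

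Differences between the inhibitors at the matched dose were small in size for these genes. Over the 60 genes compared between YKL-5-124 and samuraciclib, 0 were called in either direction, by edgeR and by DESeq2, whereas 2.46% of all genes tested were lower and 4.46% higher with YKL-5-124. An unadjusted p below 0.05 was found for 29 members and an adjusted p below 0.05 for 20. Of the latter, 9 (15% of the 60) were lower and 11 (18.3%) higher with YKL-5-124, beside 13.2% and 11.8% of all genes tested. The 3 libraries of one inhibitor lay wholly below or above those of the other for 10 members lower (16.7%) and 13 higher (21.7%) with YKL-5-124. These shares were near the 19.2% and 19.5% of all genes tested. For 58 of the 60 the 95% interval of the difference lay within 0.5 on the log2 scale, so for those a larger difference lay outside the interval. The exceptions were SPC24 (0.127 to 0.538) and PRC1 (-0.103 to 0.682). The most different gene was CDC25B, higher with YKL-5-124 by 0.38 ± 0.049 (95% interval 0.274 to 0.479, adjusted p = 2.88e-05). AURKA (0.21), CENPM (0.22) and CDC20 (0.17) were also higher with YKL-5-124, at adjusted p of 0.00723, 0.0197 and 0.019. UBE2S (-0.24, with the RPL28 overlap), ECT2 (-0.23) and KIF14 (-0.23), a kinesin of the midbody, were lower with YKL-5-124, at adjusted p of 0.0225, 0.00319 and 0.0083.

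**Figure D5:**
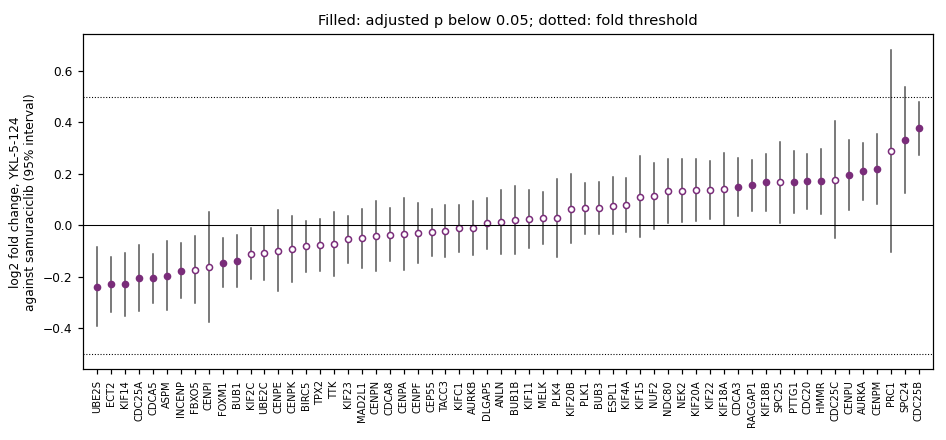
Log2 fold change of YKL-5-124 against samuraciclib with its 95% interval (vertical axis) for the 60 mitosis genes, ordered by value. Filled points have an adjusted p below 0.05, and dotted lines mark 0.5. The values run from -0.24 (UBE2S) to 0.38 (CDC25B), and none is called.

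A wider list of 125 other mitosis genes, all tested, gave 21 called lower and 3 higher with YKL-5-124, and 26 lower and 2 higher with samuraciclib (16.8% and 20.8% lower, beside the 9.93% and 9.55% of all genes tested). Their median log2 fold change was -0.23 in both comparisons, and 0 were called between the inhibitors. Among other kinetochore and centromere proteins, 6 of 25 were lower with YKL-5-124 and 9 with samuraciclib. CENPH, the fourth subunit of the module with CENPI, CENPK and CENPM, was the lowest of the 125 with both, at 54, 58.4 and 58.1 CPM in DMSO, 28.4, 31.6 and 28.9 CPM with samuraciclib, and 27.9, 29.2 and 26.7 CPM with YKL-5-124 (log2 -0.94 and -1.03). ZWINT, a bridge from the kinetochore to the checkpoint, was at 200.5, 207 and 212 CPM in DMSO, 120.5, 128 and 126 CPM with samuraciclib and 116, 122 and 117 CPM with YKL-5-124. ZWILCH and KNTC1, subunits of the RZZ complex that ZWINT recruits, were lower with both, at -0.66 and -0.50 with YKL-5-124 and -0.59 and -0.85 with samuraciclib. KNTC1 with YKL-5-124 lay close to the fold threshold. ZW10, the remaining subunit of that complex, was called with neither (-0.32 with YKL-5-124 and -0.15 with samuraciclib).

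Outside the kinetochore, SMC1A, a core cohesin subunit, was at 229, 233 and 247 CPM in DMSO, 142, 145 and 136 CPM with samuraciclib, and 128, 137 and 119 CPM with YKL-5-124. Of 13 cohesin genes, SMC1A was the only one called with samuraciclib (-0.74), or 7.69%, beside 9.55% of all genes tested called lower. SMC1A (-0.89) and STAG1 (-0.85) were called with YKL-5-124, or 15.4%, beside 9.93%. The cohesin medians were near 0, at 0.020 and -0.069. ANAPC1, the largest APC/C subunit, was called lower with both (-0.79 and -0.62). It was the only 1 of 15 APC/C genes with YKL-5-124 (6.67%) and 1 of 3 with samuraciclib (20%). Of 37 spindle and centrosome genes, 6 (16.2%) were lower with YKL-5-124 and 8 (21.6%) with samuraciclib. Among them were KNSTRN (-0.76 with YKL-5-124, -0.78 with samuraciclib), GTSE1 (-0.70 and -0.58) and SPAG5 (-0.60 and -0.57, its span wholly covered by other gene models). CIT, the citron kinase of cytokinesis, was lower with both (-0.78 and -0.54). The mitotic kinase CDK1 and its cyclin CCNB1 were called with samuraciclib (-0.61 and -0.64) and were at -0.50 and -0.47 with YKL-5-124. CCNA2 was called with YKL-5-124 (-0.51) and was at -0.36 with samuraciclib. With YKL-5-124 all 3 lay close to the fold threshold. None of the 6 genes of this group (CDK1, mitotic cyclins and CKS proteins) was called between the inhibitors (-0.16 to 0.17). The genes called higher were TUBGCP4, of the gamma-tubulin ring complex, and CHMP4B, of the ESCRT machinery, with both inhibitors, and LIN37 with YKL-5-124, at 1.14 to 1.80 CPM, with its whole span covered by other gene models. None of the other 6 MuvB core and partner genes was called with either inhibitor.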

How the data were processed

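RNA-seq libraries of FaDu cells treated with DMSO, samuraciclib or YKL-5-124 (3 each) were analysed. The authors deposited raw gene counts: read pairs from poly(A)-selected RNA were mapped on GRCh38 by HISAT2 and counted per gene by featureCounts 2.0.6, according to the submitters' processing notes and the study's methods. The GENCODE release and the strand setting are not given in the sources used here, so overlapping genes are uncertain. The deposited table also holds gene model lengths, and 25347 of its 58929 genes had no count. Library totals limit precision only for PRC1 and other genes with few counts.

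Groups were taken from the sample labels. Genes passing filterByExpr (16065) were tested with edgeR 4.0.16 in R 4.3.3 (TMM normalization, 1 quasi-likelihood fit of all 9 libraries, two-sided F-test). Adjusted p is Benjamini-Hochberg over all genes tested, the call also requires a log2 fold change beyond 0.5, and SE is the fold change divided by the square root of F. CPM uses TMM-scaled library sizes. DESeq2 1.42.0 was run as an alternative, beside other scalings, filters, thresholds, thinning, a replicate block, the 6 libraries not low in 7SL RNA and each library left out. The scripts were tested on simulated counts. Sequences came from RefSeq (GRCh38.p14). Per-library values are given for the lowest and highest gene of each role by the YKL-5-124 fold change, for genes within 0.05 of the fold threshold, and for others (among them CENPM, CENPI, SPC24, UBE2C, ESPL1, KIF20B, AURKA, FOXM1, CEP55 and the other mitosis genes) chosen after their values were seen. Members and lists were chosen with earlier results of these data known. No value column was left unused.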

Additional observations from a re-analysis of the deposited data

How the results depend on the processing

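No fold change of a called gene reversed under any of the 13 other settings or the 9 fits that each left out 1 library. Without the fold threshold, 43 members were lower and 4 higher with YKL-5-124, 41 and 3 with samuraciclib, and 9 and 11 between the inhibitors. With a threshold of 1, 0 were lower with YKL-5-124 and 1 with samuraciclib, and a test against the fold threshold itself (glmTreat) left 8 with each inhibitor. Scaling by library size alone moved the median log2 fold change of the members to -0.20 with YKL-5-124, -0.22 with samuraciclib and 0.087 between them. It shifted the median of all genes tested to 0.143 with YKL-5-124 and raised the share of calls that were higher from 54.5% to 72.7%, from 46.1% to 57.1% with samuraciclib and from 64.5% to 79.5% between the inhibitors. A mean count of at least 50 gave a median of -0.29 with YKL-5-124, and the 6 libraries not low in 7SL RNA gave -0.32 with samuraciclib, with 14 members called lower for YKL-5-124 and 17 for samuraciclib. The cause of these moves was not tested. Leaving out 1 library gave 11 to 14 members lower with YKL-5-124, 15 to 18 with samuraciclib and 0 between the inhibitors, and medians of -0.34 to -0.31, -0.31 to -0.27 and -0.0041 to 0.04. Same-numbered DMSO and inhibitor libraries were no more alike than differently numbered ones. This cannot exclude a pairing, since the library low in 7SL RNA is number 3 in DMSO and number 2 with both inhibitors. Correlations of deviations between DMSO and inhibitor libraries ran from -0.088 to 0.084 for the same number, and from -0.152 to 0.185 for different numbers. Between the inhibitors, the same-numbered correlations (0.068, 0.228 and 0.145) lay above all differently numbered ones (-0.161 to 0.019). The value of 0.228 belongs to samuraciclib 2 and YKL-5-124 2, both low in 7SL RNA. Whether any of the 9 libraries were paired is not known. With the number as a replicate block, 11, 16 and 0 members were called lower, and of the other mitosis genes 21, 25 and 0.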
